A study of Mus musculus with 16 samples.

Results

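Leukocytes are the white blood cells, and macrophages are the leukocytes that live in tissue and engulf debris. RNA of these cells was looked for in preparations of mouse heart muscle cells through 35 listed genes, each chosen as a known leukocyte or macrophage gene. All 35 symbols were found among the 35682 genes of the table, and 24 of them had a mean count of 2 or more over the 16 libraries, which was the rule for calling a gene measured. Itgam lay just inside this limit with a mean count of 2.19, and Laptm5 lay just outside it with 1.94.

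The cells were adult ventricular myocytes (AVM), the contracting cells of the heart's ventricles, from 8 WT mice and 8 littermates of the line B3AR-Tg. All 16 mice were taken 9 weeks after TAC surgery (transverse aortic constriction), which narrows the aorta and loads the left ventricle. The WT group carried no transgene and had the same surgery at the same time, and no group without surgery was analysed here, so the data compare genotypes under load. Hearts were perfused to free the cells, and the cells stayed on plates for 1 hour before RNA was extracted and ribosomal RNA was depleted. The name B3AR stands for the beta-3 adrenergic receptor. The species of the transgene, its promoter, the number of founder lines, and the sex and age of the mice are not given in the labels used here. Library totals ran from 5985335 to 14365864 counts. Levels are given as CPM, in which a gene's count is related to the total of its own library after TMM scaling. The detection floor was set at 3 counts of a gene, which came to 0.201 to 0.487 CPM across the libraries. No fold is given where the mean counts of both groups were at or under 3. The floor covers counting error only.

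As background, most resident macrophages of the heart depend on the growth factor receptor encoded by Csf1r, clear debris with scavenger receptors such as Mrc1 and Cd163, make the complement starter C1q, and digest what they take up with lysosomal enzymes such as lysozyme. Monocytes that enter from the blood use the chemokine receptor Ccr2. MHC class II genes present peptides to T cells and mark part of the macrophages as well as dendritic and B cells. Perfusion with enzymes and a short plating enrich for myocytes but do not exclude other cells of the heart wall.

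Many macrophage genes carry sites for the ETS factor PU.1, the product of the listed gene Spi1, and MHC class II promoters carry a Y box read by the factor NF-Y. Promoter sequence of 5 members is shown to let a reader see these motifs in members described below, and Arhgap9 is not in the promoter table. The sequences are 120-base stretches, 5′ to 3′ along the gene's strand, from RefSeq on GRCm38.p6, with the motif in capitals. Lyz2 is at chr10:117282309-117282428 (minus strand), Mrc1 at chr2:14229164-14229283 (plus strand), C1qc at chr4:136893045-136893164 (minus strand), H2-Aa at chr17:34287811-34287930 (minus strand) and H2-Eb1 at chr17:34305749-34305868 (plus strand).
Lyz2: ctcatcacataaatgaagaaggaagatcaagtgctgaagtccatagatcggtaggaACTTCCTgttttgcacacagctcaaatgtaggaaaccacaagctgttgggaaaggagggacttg
Mrc1: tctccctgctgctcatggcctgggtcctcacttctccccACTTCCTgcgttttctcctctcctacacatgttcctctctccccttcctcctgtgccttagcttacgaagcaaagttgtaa
C1qc: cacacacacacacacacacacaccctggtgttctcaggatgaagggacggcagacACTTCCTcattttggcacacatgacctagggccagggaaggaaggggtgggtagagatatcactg
H2-Aa: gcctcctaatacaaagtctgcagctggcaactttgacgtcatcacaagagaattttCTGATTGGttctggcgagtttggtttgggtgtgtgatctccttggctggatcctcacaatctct
H2-Eb1: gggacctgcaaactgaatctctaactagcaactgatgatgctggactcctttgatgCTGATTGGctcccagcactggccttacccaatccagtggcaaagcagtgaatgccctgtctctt
The motif AGGAAGT, a core shared by PU.1 and other ETS factors, was searched on both strands of windows of 300 bases around gene starts. It was present in 9.35% of 32851 windows and for 9 of the 17 measured members found in the table of promoters, which were Arhgdib, C1qb, C1qc, Cd53, Ctss, F13a1, Lyz2, Mrc1 and Ptprc. In Lyz2, Mrc1 and C1qc it is printed as its reverse complement ACTTCCT. The Y box motif CTGATTGG, searched the same way, was present in 4.10% of windows and in H2-Aa and H2-Eb1 among the members. A member was counted when any of its windows matched, so these counts of genes cannot be set against the shares of windows. A match describes the letters only, and binding was not measured.

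Every preparation held counts of some of the listed leukocyte and macrophage genes, at a low level. Of the 24 measured genes 1, Arhgap9, was lower in B3AR-Tg past the test. Arhgap9 encodes a GTPase-activating protein of small GTPase switches that is known mainly from blood cells. Its mean was 4.50 ± 0.907 CPM (SD, n = 8) in WT and 1.67 ± 0.430 CPM (SD, n = 8) in B3AR-Tg. The other 23 genes also had lower mean CPM in B3AR-Tg, with groups that overlapped, and none of them passed the test. No member was called higher by edgeR, DESeq2 or limma voom, whose fits gave all 24 a negative fold. Fewer leukocytes in a preparation and less of each RNA per leukocyte cannot be told apart in bulk samples. Which cells held the RNA of each gene, Arhgap9 included, was not tested.

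The test was the quasi-likelihood test of edgeR over 10945 genes, of which 537 were called at an adjusted p under 0.05. That is 4.91% of the genes in either direction, with 315 lower (2.88%) and 222 higher in B3AR-Tg. Scaling by library size alone gave another split of the calls, 165 lower and 346 higher. Only 7 members passed the low-count filter of that fit. The other 17 were fitted with all 13406 genes that had a mean count of 2 or more, where 283 genes (2.11%) were called lower. Over that wider fit the 24 members had a median log2 fold change of −0.76 against 0.01 for all genes, and all 24 fitted values were negative against 48.5% of all genes, although Cd68 turned positive with library size alone. With the mean log2 level of fibroblast and endothelial markers as a covariate, 12 of the 24 were negative and their median was −0.011. That covariate itself differed by genotype, with only B3AR-Tg replicate 4 (3.26) above the lowest WT animal (3.01). The fit with it called 2 of the 13406 genes, against 503 without it, and cannot separate genotype from these markers. Without adjustment and without that covariate, 7 of the 24 had a p-value under 0.05, as did 2441 of the 13406 genes (18.2%). The members were listed with earlier results in view, so these figures describe them and do not test them as a set. Folds below are fitted log2 values of B3AR-Tg against WT.

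Genes of the leukocyte cytoskeleton and of small GTPase signalling held the called gene. Arhgap9 had 3.31 CPM in the lowest WT animal, 4.12 at the median and 6.00 in the highest. In B3AR-Tg it had 0.971, 1.80 and 2.34 CPM. Every B3AR-Tg animal therefore lay below every WT animal, as was the case for 27 of the 10945 tested genes (0.247%), and for no other member. In counts, the WT libraries held 27 to 45 and the B3AR-Tg libraries 11 to 30. The fitted difference was −1.41 (standard error 0.19, edgeR adjusted p = 0.000637). Leaving out each animal in turn gave −1.50 to −1.33. With the fibroblast and endothelial covariate the fold was −1.12 (edgeR adjusted p = 0.174), and that fit called 2 genes in all. By gene models of GENCODE M21 the end of Arhgap9 shares 62 exon bases with Gli1 on the opposite strand, and Gli1 had 1 count in the 16 libraries together.

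Lcp1, which encodes the actin-bundling protein L-plastin, had the most counts of this role after Arhgap9. It ran from 0.588 over 2.15 to 3.14 CPM in WT (lowest, median, highest) and from 0.795 over 1.17 to 2.14 CPM in B3AR-Tg. WT replicates 1, 4, 5 and 8 lay above every B3AR-Tg animal and all 8 B3AR-Tg animals lay below the WT median, while WT replicate 6 was the lowest of all 16 animals. Its log2 fold change was −0.57 (standard error 0.30, edgeR adjusted p = 0.318). Arhgdib, a GDP dissociation inhibitor of small GTPases, had 24 counts in WT and 26 in B3AR-Tg and a fold of −0.21 (edgeR adjusted p = 0.897). Coro1a, a leukocyte coronin that binds actin, was under the limit for measured genes with 6 and 12 counts.

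**Figure D1:**
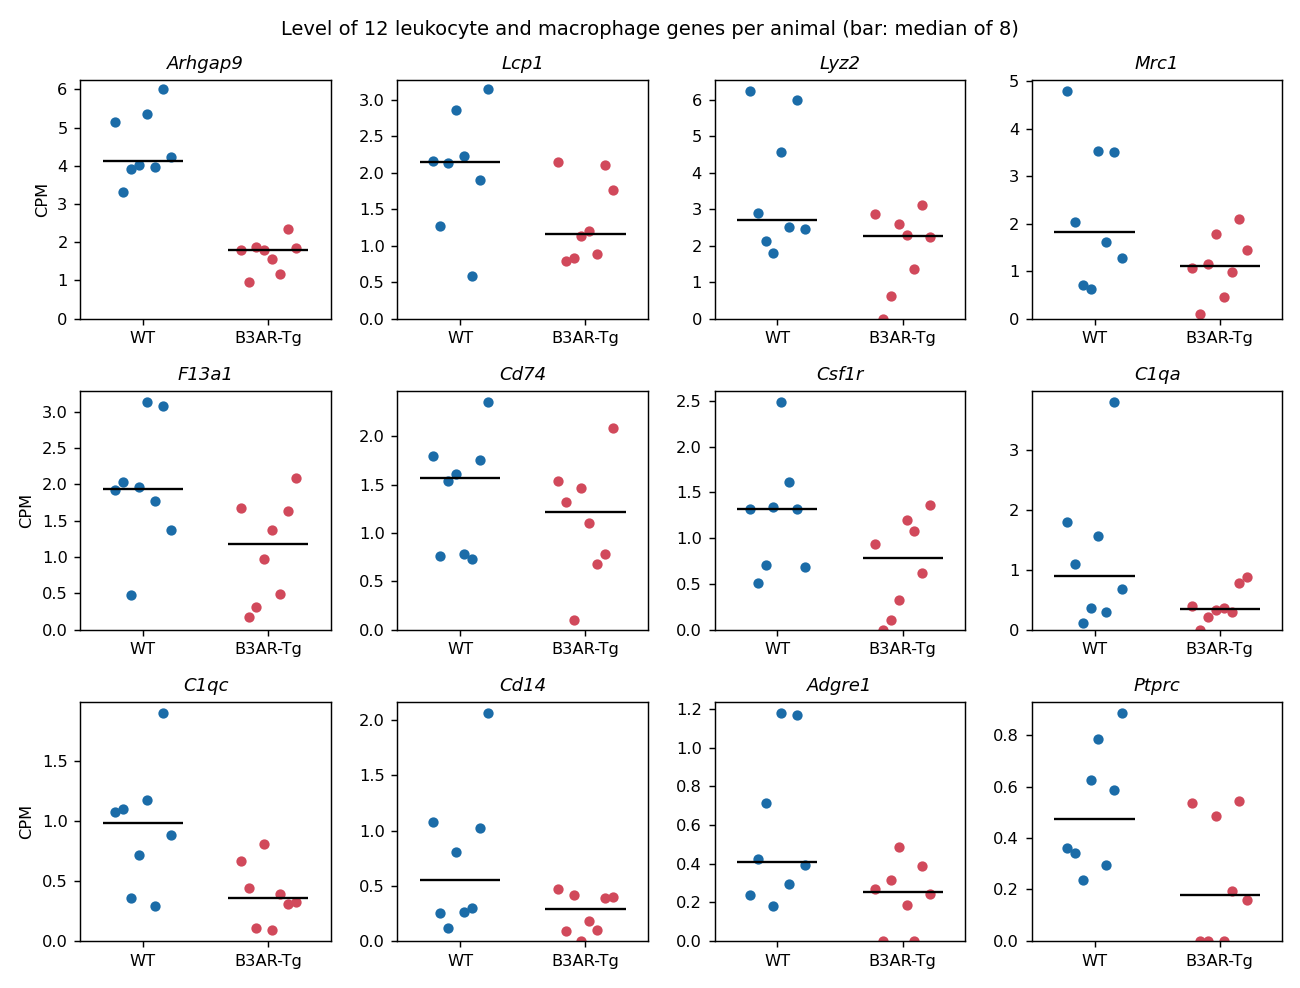
Level in CPM (linear axes from 0) of 12 members in each of the 8 WT and 8 B3AR-Tg animals, 1 point per animal, with the bar at the median of 8. The groups are apart for Arhgap9 (3.31 to 6.00 against 0.971 to 2.34 CPM) and overlap for the 11 others, several of which have B3AR-Tg animals at 0.

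Genes expressed by nearly all leukocytes were close to the floor. Ptprc encodes CD45, the surface phosphatase used to sort leukocytes. It had 0.237 CPM in the lowest, 0.473 in the median and 0.884 in the highest WT animal, and 0, 0.178 and 0.545 CPM in B3AR-Tg. No WT library was without it, while B3AR-Tg replicates 2, 3 and 5 had 0 counts. The fold was −1.05 (standard error 0.60, edgeR adjusted p = 0.376). The tetraspanin gene Cd53 had 20 counts over the WT libraries and 16 over the B3AR-Tg libraries, with both group means at or under 3 counts, so no fold is given. Per kilobase of exon, the mean of Ptprc in WT was 0.1004 CPM against 1.72 for Arhgap9. In B3AR-Tg replicate 2 Arhgap9 had 11 counts while Ptprc, Csf1r and Lyz2 each had 0, and 3 counts, the floor, would have been 0.265 CPM in that library. Other members had counts there too, with 15 of Cd74, 9 of Lcp1 and 8 of Cd68, and 9 of the 24 members were at 0.

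Of the genes that define macrophages, Csf1r had enough counts for the filtered fit. It encodes the receptor for the growth factor CSF1. Its WT animals had 0.510, 1.32 and 2.48 CPM (lowest, median, highest) and its B3AR-Tg animals 0, 0.780 and 1.36 CPM. A group of 3 B3AR-Tg animals (replicates 2, 3 and 4) lay below every WT animal, and the other 5 lay within the WT range. The log2 fold change was −0.74 (standard error 0.47, edgeR adjusted p = 0.414). Csf1r shares 873 exon bases with Hmgxb3 on the opposite strand, and Hmgxb3 had 2099 counts against 150 for Csf1r. Whether counting used strand is not given in the sources used here, so reads of these 2 genes may be mixed.

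Adgre1 encodes F4/80, a classic surface marker of mouse macrophages. It had 0.179, 0.409 and 1.18 CPM in WT and 0, 0.254 and 0.487 CPM in B3AR-Tg. WT replicates 5 and 7 stood above every B3AR-Tg animal by the widest margin, and B3AR-Tg replicates 2 and 6 had 0 counts. Its fold of −1.24 had a standard error of 0.57 and an edgeR adjusted p of 0.255. Cd68, a glycoprotein of the lysosome membrane, had 0.170, 0.556 and 1.46 CPM in WT and 0.184, 0.647 and 1.15 CPM in B3AR-Tg. The B3AR-Tg median was the higher one, and the fold was −0.01 (standard error 0.44, edgeR adjusted p = 0.993). Itgam, the alpha chain of the integrin CD11b/CD18, had 19 counts in WT and 16 in B3AR-Tg, with both group means at or under the floor. It shares 3450 exon bases with the gene model Gm49368 on the same strand, which was at 0.

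Lysosomal and oxidant enzymes included the member with the highest level per kilobase. Lyz2 encodes lysozyme, which cleaves bacterial cell walls and is made in bulk by macrophages. WT animals had 1.79, 2.69 and 6.23 CPM of Lyz2, and B3AR-Tg animals 0, 2.27 and 3.11 CPM. WT replicates 1, 5 and 7 were above all B3AR-Tg animals, B3AR-Tg replicates 2, 3 and 6 were below all WT animals, and the remaining animals overlapped. The fold was −0.89 (standard error 0.42, edgeR adjusted p = 0.253). Its close paralogue Lyz1 had 4 counts in all. Ctss, the protease cathepsin S, had 47 and 30 counts and a fold of −1.01 (edgeR adjusted p = 0.316). Cybb, the catalytic subunit of the phagocyte NADPH oxidase, had 38 and 42 counts and a fold of −0.16 (edgeR adjusted p = 0.892).

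Genes of tissue-resident macrophages had the same overlap. Mrc1 encodes the mannose receptor CD206. Its WT values were 0.625, 1.83 and 4.80 CPM, and its B3AR-Tg values were 0.0883, 1.11 and 2.10 CPM. WT replicates 1, 5 and 7 were again above every B3AR-Tg animal, but WT replicates 3 and 4 lay below the B3AR-Tg median. The fold was −0.98 (standard error 0.45, edgeR adjusted p = 0.237). F13a1, the coagulation factor XIII A chain, had 0.475, 1.94 and 3.14 CPM in WT and 0.177, 1.18 and 2.09 CPM in B3AR-Tg, with a fold of −0.79, a standard error of 0.40 and an edgeR adjusted p of 0.284. Cd163, the haemoglobin scavenger receptor, had 0, 0.280 and 0.588 CPM in WT and 0, 0.0442 and 0.669 CPM in B3AR-Tg. Of its 16 counts in B3AR-Tg, 10 came from replicate 1, and no fold is given because both group means were at or under the floor.

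**Figure D2:**
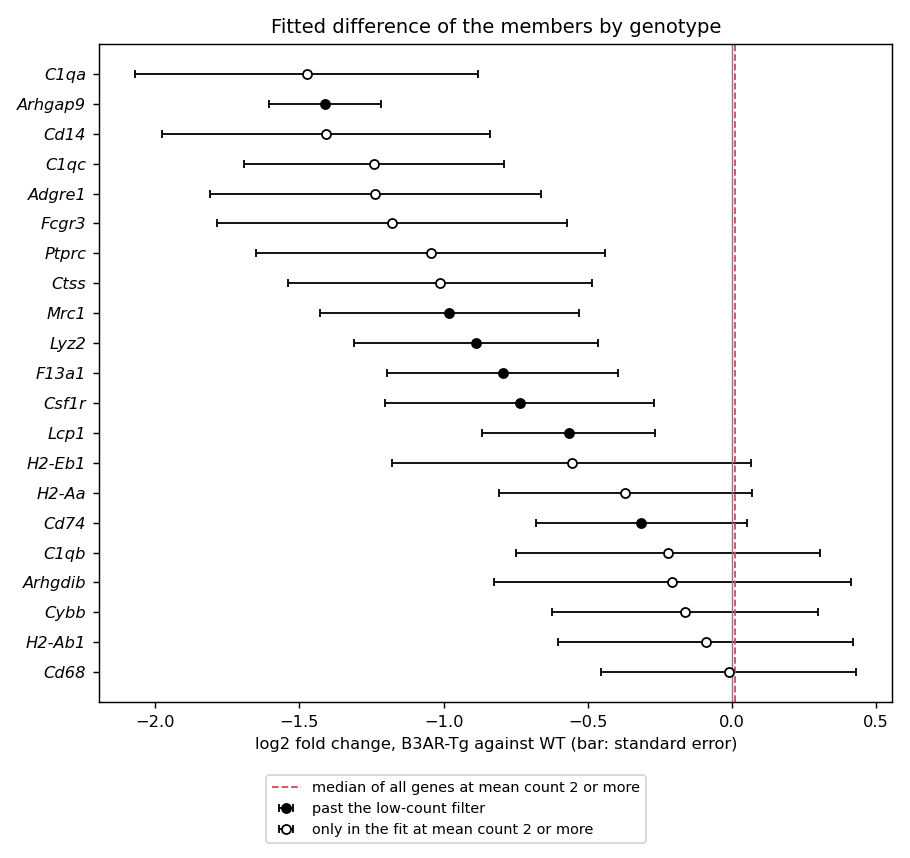
Fitted log2 fold change of B3AR-Tg against WT (horizontal axis) with its standard error, ordered by size. Shown are the 21 members with a mean count above the floor in at least 1 group. Filled points passed the low-count filter, and open points come from the fit of all genes at a mean count of 2 or more, whose median of 0.01 is the dashed line. All points lie at or left of 0, from −1.47 (C1qa) to −0.01 (Cd68), and the smallest error is that of Arhgap9 (0.19).

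The 3 C1q genes encode the chains that join into the first component of complement, and their fitted differences were unequal in size. C1qa had 0.119, 0.896 and 3.81 CPM in WT and 0, 0.346 and 0.883 CPM in B3AR-Tg. C1qc had 0.294, 0.982 and 1.90 CPM in WT and 0.0918, 0.356 and 0.812 CPM in B3AR-Tg. C1qb had 0.119, 0.416 and 1.10 CPM in WT and 0.0883, 0.540 and 1.04 CPM in B3AR-Tg, so its B3AR-Tg median was the higher one. WT replicate 7 alone gave 26 of the 80 WT counts of C1qa but 3 of the 41 WT counts of C1qb, whereas WT replicate 2 had 13 counts of each chain. The folds were −1.47 with a standard error of 0.60 for C1qa, −1.24 with 0.45 for C1qc and −0.22 with 0.53 for C1qb. Their edgeR adjusted p-values were 0.178, 0.130 and 0.864, and the difference between the chains was not tested. Without WT replicate 7 the fold of C1qa was −0.99.

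Receptors for microbial products, chemokines and antibodies were represented by Cd14 and Fcgr3. Cd14 encodes the co-receptor that hands endotoxin to TLR4. WT animals had 0.119, 0.549 and 2.06 CPM and B3AR-Tg animals 0, 0.286 and 0.469 CPM, with WT replicate 8 highest at 21 of 54 WT counts. Its fold was −1.41 (standard error 0.57, edgeR adjusted p = 0.179), and −0.97 without WT replicate 8. Fcgr3, a low-affinity receptor for IgG, had 30 counts in WT and 15 in B3AR-Tg and a fold of −1.18 (edgeR adjusted p = 0.311).

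MHC class II genes had fitted differences from −0.56 to −0.09, and none was called. Cd74 encodes the invariant chain that guides class II molecules to endosomes. It had 0.735, 1.57 and 2.36 CPM in WT and 0.104, 1.21 and 2.09 CPM in B3AR-Tg, with a fold of −0.31, a standard error of 0.37 and an edgeR adjusted p of 0.684. The alpha chain gene H2-Aa had 0.255, 0.696 and 2.37 CPM in WT and 0.234, 0.626 and 1.28 CPM in B3AR-Tg. The beta chain gene H2-Ab1 had 0.170, 0.556 and 1.32 CPM in WT and 0.0883, 0.473 and 1.25 CPM in B3AR-Tg. The beta chain gene H2-Eb1 had 0, 0.317 and 0.915 CPM in WT and 0, 0.189 and 0.650 CPM in B3AR-Tg. All 4 ranges overlapped. The folds were −0.37 for H2-Aa, −0.09 for H2-Ab1 and −0.56 for H2-Eb1, with edgeR adjusted p-values of 0.696, 0.951 and 0.677. Their standard errors were 0.44, 0.51 and 0.62. Summed over the 4 genes the WT median was 3.21 CPM and the B3AR-Tg median 2.67 CPM, while for the 3 C1q chains these medians were 2.60 and 1.35 CPM. Whether class II genes and C1q chains differ in this was not tested.

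Of the listed genes, 11 stayed below a mean count of 2, with 4 to 31 counts each over all 16 libraries and 164 together. Spi1, which encodes PU.1, had 4 counts in WT and 7 in B3AR-Tg. The monocyte receptor gene Ccr2 had 3 and 1 counts, and the chemokine receptor gene Cx3cr1 had 12 and 5. The lysosomal membrane gene Laptm5 had 24 counts in WT and 7 in B3AR-Tg. The adaptor genes Fcer1g and Tyrobp, which carry signals from Fc and other immune receptors, had 10 and 17 counts in all. The remaining ones were Cd52, Itgb2, Mpeg1 and Aif1 beside Coro1a. In the edgeR fit with no low-count filter 0 of the 11 were called, and 1 of them, Laptm5, had an unadjusted p under 0.05 (0.0242, adjusted p = 0.233).

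Levels per kilobase of exon, taken from GENCODE M21 gene models, put the members in order within each genotype. In WT, Lyz2 had the highest group mean at 2.71 CPM per kilobase, followed by Arhgap9 at 1.72, C1qa at 1.17 and Cd74 at 1.00. In B3AR-Tg, Lyz2 had 1.44, Cd74 0.802, Arhgap9 0.640 and H2-Aa 0.603 CPM per kilobase. Cd68 had 0.546 and 0.541. Csf1r had 0.256 and 0.144, and Mrc1 had 0.421 and 0.211. In both genotypes the ranges over animals overlapped for all 23 pairs of neighbours in the order, so the order of neighbours is not resolved.

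**Figure D3:**
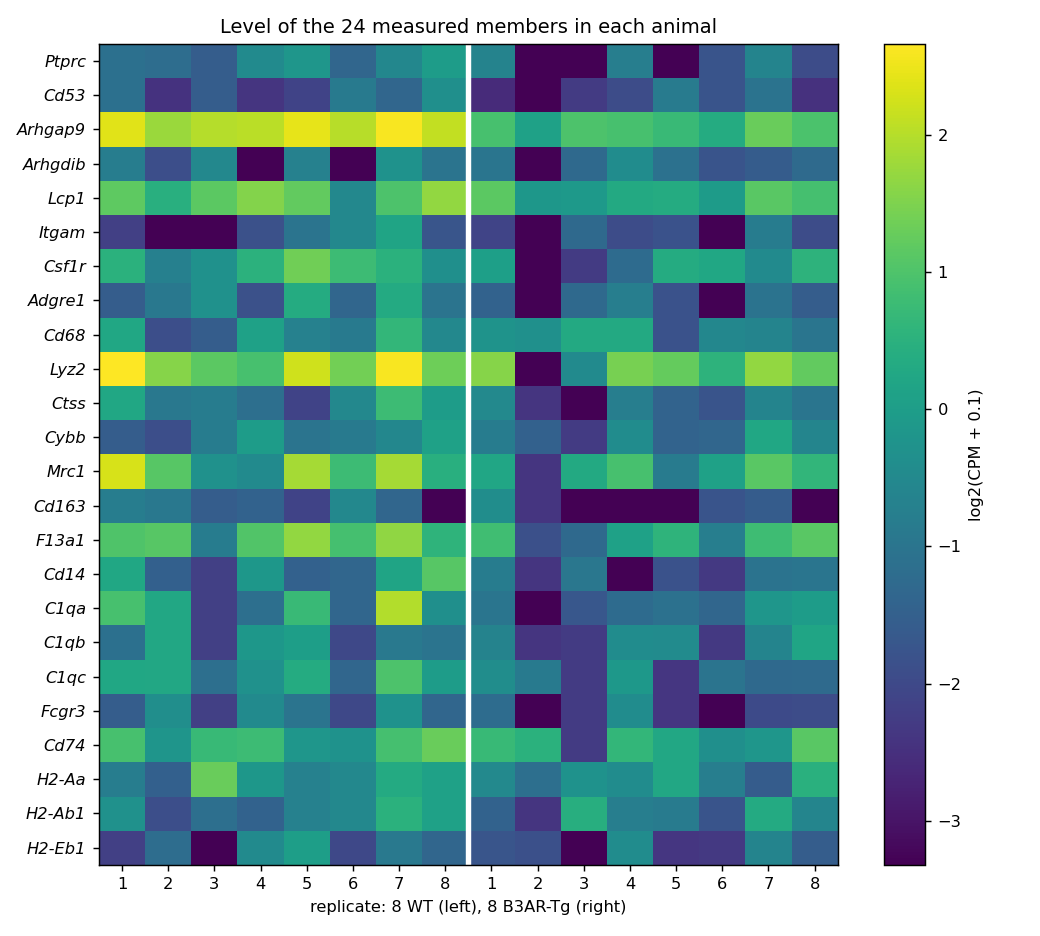
Level of the 24 measured members (rows, by role) in each animal (columns, 8 WT left of the white line and 8 B3AR-Tg right of it), coloured by log2(CPM + 0.1), where the darkest colour is 0 counts. B3AR-Tg replicate 2 has 9 members at 0, WT replicate 7 is the highest WT animal for 9 members, and the Arhgap9 row is brighter in WT than in any B3AR-Tg animal.

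Animals of the same genotype differed widely in these genes. Summed over the 23 measured members other than Arhgap9, WT had 22.5 ± 7.68 CPM (SD, n = 8) with a range of 14.5 to 36.2, and B3AR-Tg had 13.3 ± 5.38 CPM (SD, n = 8) with a range of 4.77 to 18.9. WT replicate 7 was highest and lay above the WT median for 22 of the 24 members. B3AR-Tg replicate 2 was lowest, with 9 members at 0 and the lowest or tied value of its group for 15. Low values there were not shared by all members, because the same library held 15 counts of Cd74 and 8 of Cd68. WT replicate 3 was the lowest WT animal in the sum, with 1 count each of C1qa and C1qb, yet it had the highest H2-Aa value of all animals, at 20 counts. In B3AR-Tg replicate 3, H2-Ab1 had 12 counts and Cd74 had 1. In all, 13 members were at 0 in some B3AR-Tg animal and 4 in some WT animal.

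Markers of other cell types also varied with genotype and animal, and their part in the results was not tested. A list of 10 ventricular myocyte genes summed to between 69929 and 115728 CPM in every library, against 5.74 to 42.2 CPM for the 24 members together. A list of 10 fibroblast genes summed to 77.8 to 179 CPM in WT and 31.7 to 107 CPM in B3AR-Tg. Of the 9 tested, 3 were called lower (Col1a1, Dcn and Col3a1), against 2.88% of all 10945 tested genes. All 9 had negative folds in the wider fit, with a median of −0.84 against −0.76 for the 24 members. An unadjusted edgeR p under 0.05 was found there for 8 of the 9, against 18.2% of all 13406 genes. For 10 endothelial genes the sums were 153 to 212 CPM in WT and 69.2 to 256 CPM in B3AR-Tg, with 3 of 10 called lower (Pecam1, Flt1 and Emcn). In the wider fit all 10 had negative folds with a median of −0.49, and 6 had an unadjusted edgeR p under 0.05. In both lists B3AR-Tg replicate 2 was lowest of all 16 animals, as it was for the members. Among mural cell genes 1 of 8 tested was called higher (Abcc9), while 6 of the 8 had negative folds with a list median of −0.46. Abcc9 had a WT mean of 334.5 CPM, against 44.9 CPM for Rgs5, the next highest of the list in WT. Whether its RNA came from mural cells was not tested. An unadjusted p under 0.05 was found for 4 of the 8, which were Abcc9 and, with negative folds and no call, Pdgfrb, Cspg4 and Notch3. Among myocyte genes 1 of 10 was called higher by edgeR (Ryr2).

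**Figure D4:**
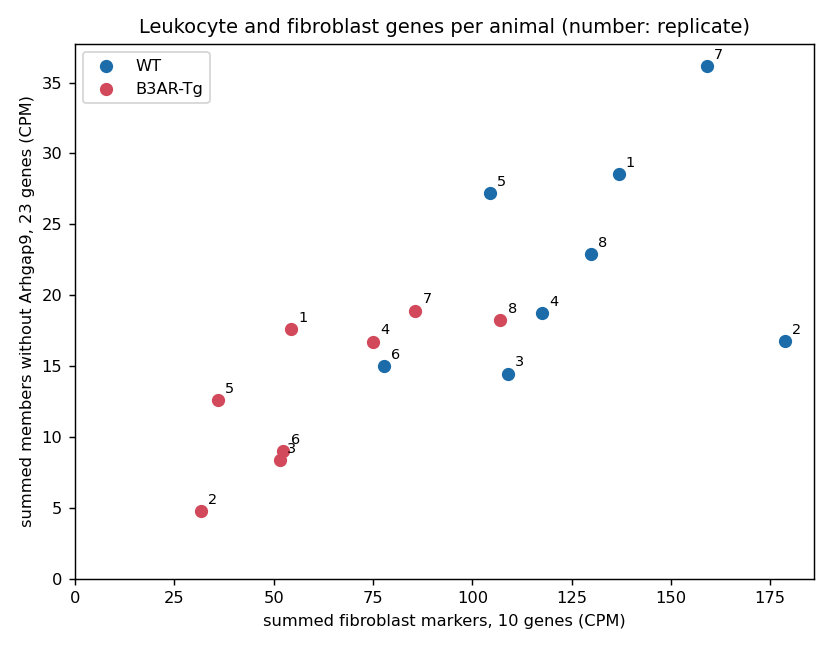
Summed CPM of the 23 measured members other than Arhgap9 (vertical axis) against summed CPM of 10 fibroblast markers (horizontal axis), 1 point per animal, labelled by replicate number. B3AR-Tg animals fill the lower left, from 4.77 to 18.9 CPM of members, and WT replicate 2 has the most fibroblast RNA (179 CPM) with 16.7 CPM of members.

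Genes of other leukocyte classes had few counts, and defining genes of several classes were at 0. T cell markers had 46 counts over all libraries and 14 genes, and Cd3d, Cd3e, Cd3g and Trac were at 0. B cell markers had 75 counts, and NK cell markers 82 with Nkg7, Ncr1, Gzma, Gzmb and Prf1 at 0. Neutrophil markers had 257 counts, 197 of them from Cxcr2, with Ly6g, Retnlg, Camp and Ngp at 0. Mast cell markers had 134 counts, with Cpa3, Tpsb2 and Fcer1a at 0. Dendritic cell markers had 647 counts, 587 of them from Zbtb46, with Flt3, Clec9a, Cd209a and Siglech at 0. Erythroid markers, a sign of blood, summed to at most 1.36 CPM in any library. Of these lists 2 genes passed the low-count filter and 7 had a mean count of 2 or more, and 0 were called by edgeR, DESeq2 or limma voom. In the wider edgeR fit 2 of the 7 had an unadjusted p under 0.05, the NK receptor gene Klre1 with 13 counts in WT and 48 in B3AR-Tg and the globin gene Hbb-bs, which has the near-identical copy Hbb-bt, with 30 and 7.

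A further 89 macrophage and myeloid genes were taken from general knowledge, and 24 of them passed the low-count filter. Of these 24, 4 were called lower in B3AR-Tg, against 2.88% of all 10945 tested genes, and 0 higher. Their median log2 fold change was −0.04. In the wider fit 47 genes of the list were tested, with a median of −0.31. There 31 of the 47 had negative folds, against 48.5% of all genes. Stab1, a scavenger receptor of macrophages and some endothelia, had 2.23, 4.11 and 9.04 CPM in WT and 1.29, 1.94 and 3.15 CPM in B3AR-Tg, a fold of −1.11 (standard error 0.26, edgeR adjusted p = 0.0169). Apoe, a lipid carrier, had 6.52, 12.8 and 22.2 CPM in WT and 3.09, 6.15 and 11.9 CPM in B3AR-Tg, a fold of −1.07 (standard error 0.24, edgeR adjusted p = 0.0158). The tetraspanin gene Cd9 had a fold of −0.73 (edgeR adjusted p = 0.0272), and the receptor kinase gene Axl a fold of −1.05 (edgeR adjusted p = 0.0413). The call of Cd9 was kept in 12 and that of Axl in 7 of the 16 fits that left out 1 animal. With the fibroblast and endothelial covariate none of the 4 was called, with folds of −0.88 for Stab1 (edgeR adjusted p = 0.408) and −0.30 for Apoe (edgeR adjusted p = 0.718). These 4 genes are not markers of macrophages alone, since other cells of the heart also express them. Other genes of that list were abundant in these preparations, such as Cd36 with a WT mean of 1842 CPM and Ctsd with 1237, and neither was called.

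Csf1 and Ccl2, ligands of member receptors, were not called by edgeR, DESeq2 or limma voom. Csf1, the ligand of the Csf1r product, had 9.01, 11.7 and 20.05 CPM in WT and 6.00, 10.2 and 15.1 CPM in B3AR-Tg, a fold of −0.32 (standard error 0.18, edgeR adjusted p = 0.350). Il34, its other ligand, had 8 counts in WT and 2 in B3AR-Tg and was in neither fit. Ccl2, the ligand of the Ccr2 product, had 0, 0.921 and 12.2 CPM in WT and 0.265, 0.404 and 1.62 CPM in B3AR-Tg, a fold of −1.91 (standard error 0.69, edgeR adjusted p = 0.129). Of the 180 WT counts of Ccl2, 124 were in replicate 8, and the other 7 WT animals overlapped the B3AR-Tg animals. The fold of Ccl2 was −0.58 without that animal, −0.54 with DESeq2 and −0.63 with limma voom.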

How the data were processed

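RNA of adult ventricular myocytes was measured in 16 mice, 8 per genotype, each labelled as a separate biological replicate. The table deposited by the authors holds raw counts as whole numbers, a column for each mouse. The submitters' processing notes name Salmon and GRCm39 without a role, so the counts may be rounded estimates. Tool version, annotation release and strand setting are not given in the sources used here. Promoters and gene models come from another build (GRCm38), so genes were matched by ID or symbol, and coordinates are printed for the promoter stretches alone, on GRCm38.p6.

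Counts were compared with the two-sided quasi-likelihood test of edgeR 4.0.16 (limma 3.58.1, R 4.3.3) with TMM factors, the filterByExpr filter (minimum count 10, minimum total 15) and genotype as the only term. P-values were adjusted by Benjamini-Hochberg across the genes of each fit, and calls were made at 0.05. Standard errors of the edgeR folds were back-calculated, as the absolute fold divided by the square root of the test's F statistic. They are approximate, above all for folds near 0. Members outside that filter take their values from the same fit over all genes of mean count 2 or more. Fits were tested on simulated data. The members, the gene lists and the rule for named genes (every member accounted for, values per animal for defining genes, at most 4 called genes from each further list and 3 ligands) were chosen with earlier results of these data known.

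Alternatives were RLE, upper quartile and library-size scaling, other low-count filters, DESeq2 1.42.0, limma voom with sample weights, a replicate block, a covariate of fibroblast and endothelial markers, and each animal left out. Repeating these in the wider fit was chosen after seeing the data. No library looked like a copy of another: chi-square values per gene were 6.03 to 58.9 in the 56 same-genotype pairs, far above sampling noise. The labels name no batch. A gene of the further lists is not reported here.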

Additional observations from a re-analysis of the deposited data

Results flagged for a closer look

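In groups of 8 animals, a highest or lowest value was marked when its gap to the nearest animal took up more of the group's range than Dixon's 95% critical value for 8 samples allows. The search covered 66 groups and marked 7 of them, each for a highest value. For normally distributed values about 1 in 20 groups, or 3.3, would be marked. Low counts are skewed and the groups share animals, so 3.3 is a rough guide only. Among the members, C1qa was at 3.81 CPM (26 counts) in WT replicate 7, with the next WT animal at 1.80 CPM. H2-Aa was at 2.37 CPM (20 counts) in WT replicate 3, with the next at 1.17 CPM. Cd163 was at 0.669 CPM (10 counts) in B3AR-Tg replicate 1, with the next at 0.234 CPM. Among the ligands, Csf1 was at 20.05 CPM in WT replicate 3 and Ccl2 at 12.2 CPM in WT replicate 8, which was also the animal with Stab1 at 9.04 CPM. B3AR-Tg replicate 4, the library with the fewest counts, had 255.5 CPM summed over the endothelial markers, and the next B3AR-Tg animal had 134.6 CPM of these markers.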

How the results depend on the processing

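Of the 24 members, Arhgap9 alone was called lower under every scaling, filter, test, the replicate block and each removal of an animal (1 to 1 calls), but 0 members were called with the covariate of fibroblast and endothelial markers. That covariate was 3.01 to 3.88 log2 units in WT and 1.78 to 3.26 in B3AR-Tg. Only B3AR-Tg replicate 4 lay above the lowest WT animal, so the fit cannot separate genotype from the covariate. Under it the log2 fold turned positive for Ptprc (0.24), Arhgdib (0.90), Cd68 (0.15), Lyz2 (0.15), Ctss (0.040), Cybb (0.43), Mrc1 (0.17), C1qa (0.12), C1qb (1.00), Fcgr3 (0.71), H2-Ab1 (0.40), H2-Eb1 (0.26) and Axl (0.19), all without a call. Cd68 also turned positive with library size alone (0.052) and with the replicate block (0.057). Leaving out 1 animal gave ranges that crossed 0 for Cd68 (−0.17 to 0.22), Cybb (−0.48 to 0.038), C1qb (−0.51 to 0.030), H2-Aa (−0.58 to 0.013) and H2-Ab1 (−0.35 to 0.14). In the further gene lists 10 genes were lower, against 15 with DESeq2, 15 with limma voom, 7 with the replicate block, 6 with library size alone, 0 with the covariate and 6 to 13 with 1 animal left out (6 without WT replicate 4). In those lists 2 were higher, against 4 with library size alone, 4 with DESeq2, 0 with the replicate block, 0 with the covariate and 1 to 3 with 1 animal left out. The cause of these shifts was not tested. The replicate numbers belong to different animals, and 0 of 8 same-numbered pairs had a correlation over 0.1. With the replicate block 230 genes were called against 537, 1 member among them. Over all genes the 537 calls became 2 with the covariate, 274 without B3AR-Tg replicate 5, 275 without WT replicate 4 and 341 without B3AR-Tg replicate 8. Of 684 alternative values for 28 genes, 629 kept their direction and side of the threshold. Most of the 28 were not called at first, and staying uncalled counted as kept. Of the other values, 31 changed direction and 24, all of genes called at first, lost the call. Depth limits the 18 members with a mean count under 10.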

Other observations

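Chemokines and cytokines, the signals that call and shape leukocytes, were looked at beyond the receptor ligands. Of 35 listed genes 9 passed the low-count filter and 0 were called by edgeR, with 3 at an unadjusted p under 0.05. Of the 23 at a mean count of 2 or more, 20 had negative folds and 10 an unadjusted p under 0.05, against 48.5% and 18.2% of all 13406 genes, while DESeq2 called 2 lower and limma voom 0. WT replicate 8 stood apart in several of these genes and in Lgals3 of the further myeloid list, all picked here after their values were seen. It held 327 of the 796 WT counts of Cxcl1, a neutrophil attractant, 57 of the 92 WT counts of Ccl7, a monocyte attractant, and 48 of the 68 WT counts of Lgals3, the galectin-3 gene of activated macrophages. The same animal was not the highest WT animal in the summed members, where WT replicates 1, 5 and 7 lay above its 22.9 CPM.

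Complement genes other than C1q were also listed. Of the 13 reported here, 10 had a mean count of 2 or more, and in that fit edgeR, DESeq2 and limma voom each called 1 of them lower and 0 higher. The called gene was Cd55, a membrane inhibitor of complement. It had 1.03, 1.25 and 4.81 CPM (lowest, median, highest) in WT and 0.162, 0.369 and 1.32 CPM in B3AR-Tg, which is −1.92 on the log2 scale (standard error 0.44, edgeR adjusted p = 0.0166). With the covariate of fibroblast and endothelial markers the fold was −1.54 (edgeR adjusted p = 0.452) and with the replicate block −1.91 (edgeR adjusted p = 0.0539), so neither fit called it. Its level was below the whole WT range in 7 of 8 B3AR-Tg animals. C3, the central component, had a fold of 0.01 (edgeR adjusted p = 0.992).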
